A study of Mus musculus with 13 samples.

Results

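Inhibitory neurons of the forebrain release the transmitter GABA, and most of them can be told apart by the calcium-binding proteins, neuropeptides and transcription factors that they make. The 10 genes described here are general and subclass markers of these cells: Gad1 and Gad2, which encode the enzymes that make GABA from glutamate; Slc32a1, which encodes the carrier that loads GABA into synaptic vesicles; Lhx6, a transcription factor of interneurons born in the medial ganglionic eminence; Pvalb, the calcium buffer of fast-spiking interneurons; and the peptide precursor genes Sst, Npy, Vip, Cck and Tac1. They were taken by name from the gene annotation of the study, each symbol matched 1 row, and all 10 were among the 14985 genes that passed a filter on low counts, of 55401 gene identifiers in all.

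The libraries came from the brains of male mice. Their labelled age of 6 to 8 weeks was taken as that at the start of the diets, while the methods of the study give an older age. Per the labels 1 hemisphere of a mouse was frozen for the libraries. CTL mice (n = 5) ate control diet for 6 weeks. CPZ mice (n = 4) ate 0.3% cuprizone, a copper chelator that kills oligodendrocytes and strips myelin, for 4 weeks and were killed at once. RCV mice (n = 4) had the same 4 weeks of cuprizone and then 2 weeks of control diet. The CPZ mice were therefore killed 2 weeks earlier in the study than the other groups, and diet and time of collection cannot be told apart in comparisons with CPZ. The protocol text in the labels gives 4 control, 3 cuprizone and 3 recovery mice, fewer than the libraries labelled for each group. A figure legend of the study instead counts 5 control, 4 cuprizone and 4 recovery samples, each with bulk RNA-seq. The numbers of labelled libraries, which match that legend, were used as n, and whether any share a mouse was not tested. The RCV libraries carry titles that begin with "Veh", and their group was taken from the treatment label.

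Several of these genes are not confined to interneurons. In the striatum the GABA genes are expressed by the projection neurons, Tac1 marks the projection neurons of the direct pathway, and Cck is made by many excitatory neurons of the cortex as well as by a class of interneurons. A level in bulk brain RNA therefore sums several cell types, and in such RNA fewer cells of a type and less RNA per cell cannot be told apart.

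The libraries held 4605100 to 8197289 counts each. Their regional make-up differed within every group. The summed TPM (a level scaled to transcript length and to the total of the library) of 9 markers of striatal projection neurons ran from 159.6 in RCV replicate 3 to 1841 in CTL replicate 2, with 1549.9 in RCV replicate 4. That of 8 hippocampal markers ran from 27.6 in RCV replicate 4 to 188 in RCV replicate 3, and that of 6 choroid plexus markers from 13.2 in RCV replicate 4 to 5139 in CTL replicate 3. The cerebellar markers Pcp2, Gabra6 and Cbln3 reached at most 2, 4 and 13 counts in any library, while the labels describe a frozen hemisphere. The rest of that list was detected in every library: Cbln1 (79 to 286 counts), Zic1 (83 to 692), Zic2 (64 to 205) and Car8 (40 to 80). Whether the libraries held cerebellum was not tested. The diets were visible in the glial lists: 8 of 8 microglial markers were higher and 8 of 8 mature oligodendrocyte markers lower in CPZ than in CTL and than in RCV (edgeR quasi-likelihood test, adjusted p under 0.05).

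On the GRCm38 assembly, Gad2 lay at chr2:22622205-22693874 (plus strand), Lhx6 at chr2:36081953-36105408 (minus), Gad1 at chr2:70553072-70602014 (plus) and Slc32a1 at chr2:158610767-158615748 (plus). Tac1 lay at chr6:7554879-7565834 (plus), Npy at chr6:49822710-49829507 (plus), Cck at chr9:121489824-121495694 (minus), Vip at chr10:5639218-5647617 (plus), Pvalb at chr15:78191114-78206400 (minus) and Sst at chr16:23889573-23890958 (minus). Gad1 and Slc32a1 overlap annotated antisense genes, Gad1os and Gm14205, which held at most 8 and 7 counts in any library. The strand setting of the counting is not given in the sources used here.

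Transcription of many neuropeptide genes responds to cyclic AMP and calcium through the factor CREB, which binds the palindrome TGACGTCA or its half-site TGACG. Of the 10 genes, 5 held the half-site, on either strand, in the 250 bases before the RefSeq start (GRCm38.p6), against 17.8% of all 32851 promoter windows searched, and Sst alone of the 10 held the palindrome, which 1.55% of all windows held. The half-site is contained in the palindrome, so the counts overlap. The counts are by gene and the shares by window, and the 2 are not like for like: Lhx6 had 3 windows and Pvalb 2, each with 0 half-sites. The 30 bases around the site nearest the start are shown for these 5 genes, so that the letters and their surroundings can be compared, with the site in capitals, on the strand of the gene:
Sst (chr16:23890874-23890903, minus strand): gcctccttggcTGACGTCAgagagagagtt
Vip (chr10:5639127-5639156, plus strand): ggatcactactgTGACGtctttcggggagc
Cck (chr9:121495724-121495753, minus strand): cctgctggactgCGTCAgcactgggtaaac
Tac1 (chr6:7555006-7555035, plus strand): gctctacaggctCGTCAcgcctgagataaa
Gad2 (chr2:22622282-22622311, plus strand): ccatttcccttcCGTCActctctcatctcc
The first letter of the site lay 48 bases before the start in Sst, 79 in Vip, 47 in Cck, 43 in Tac1 and 33 in Gad2. The gene coordinates above are those of GENCODE, whose starts of Sst, Tac1 and Gad2 lie farther upstream, so that these 3 stretches fall inside the GENCODE genes. A match of letters is a description of the sequence and not a measure of binding. The activity-induced genes, many of which respond to the same factor, are described with the other lists.

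The question of the comparisons was whether the transcripts of inhibitory neurons and their peptides were altered at the end of cuprizone feeding or after the return to control diet. Of the 10 genes, 0 passed an adjusted p of 0.05 in any comparison of 2 groups (edgeR quasi-likelihood test on the counts, Benjamini-Hochberg over 14985 genes). Of all genes, 10.2% were called in CPZ against CTL, 0.374% when RCV was compared with CTL and 7.01% in CPZ against RCV. An unadjusted p under 0.05 was reached by 0 of the 10 genes, against 22.1%, 6.2% and 19.1% of all genes in the same order. DESeq2, which called 11%, 0.874% and 7.98% of all genes, and limma-voom, which called 10.2%, 0.0801% and 6.66%, also called 0 of the 10 in each comparison. In all 3 comparisons the libraries of the groups overlapped for each of the 10 genes, while the groups did not overlap for 13.1%, 2.9% and 13.2% of all genes. A test that misses the threshold does not show equal levels, and the intervals given with each gene state the size of change that these libraries leave possible.

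**Figure D1:**
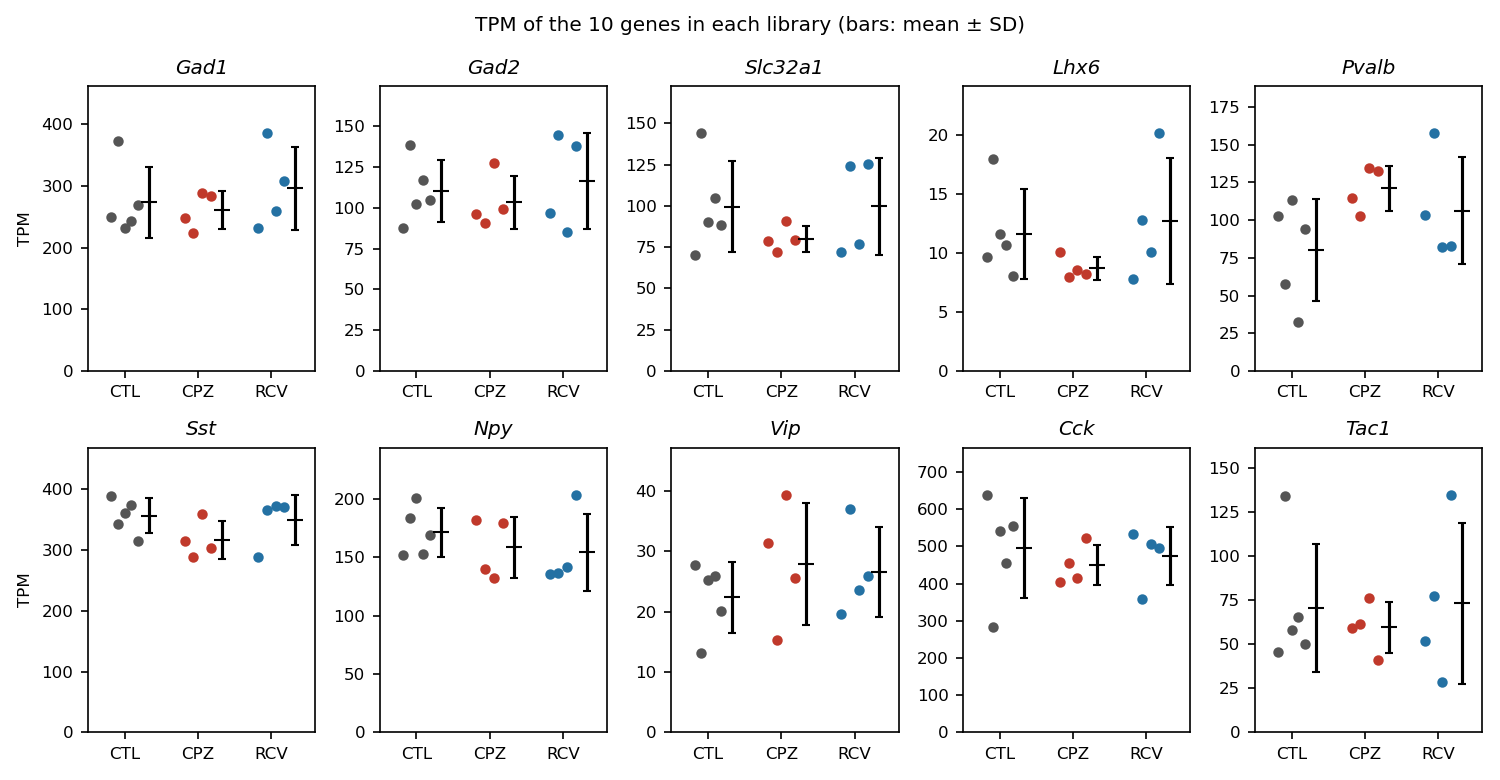
TPM of each of the 10 genes (vertical axes, from 0) in the 5 CTL, 4 CPZ and 4 RCV libraries; points are libraries and bars the mean ± SD of a group. The groups overlap in every panel, and CTL replicate 2 (second CTL point) is the highest CTL library for Gad1, Gad2, Slc32a1, Lhx6 and Tac1 and the lowest for Cck and Vip.

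Cck had the highest level per transcript length, with a mean of 475 TPM over the 13 libraries, followed by Sst at 342, Gad1 at 277 and Npy at 162 TPM. Gad2 (110.2 TPM), Pvalb (101), Slc32a1 (93.6) and Tac1 (68.0) formed a middle range, and Vip (25.4) and Lhx6 (11.0) were lowest. The order of the first 4 genes, and of Tac1, Vip and Lhx6 at the end, was the same in all 3 groups. Neighbours in the order mostly overlapped between libraries. Gad1 and Npy did not overlap in any of the 3 groups, Tac1 and Vip did not overlap in CTL and CPZ, Cck and Sst and also Vip and Lhx6 did not overlap in CPZ, and Npy and Gad2 did not overlap in CTL. Pvalb stood below Gad2 and Slc32a1 in CTL and above both in CPZ, but in CTL its libraries overlapped with those of both, and in CPZ with those of Gad2.

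Gad1, which encodes GAD67, the enzyme that makes most of the GABA of the brain, had 249.6, 373, 232, 243 and 269.8 TPM in the 5 CTL libraries. The 4 CPZ libraries had 248, 224, 289 and 284 TPM, and the 4 RCV libraries 233, 385, 259 and 308 TPM. The highest values were those of CTL replicate 2 and RCV replicate 2, and the other 11 libraries lay between 224 and 308 TPM, all 3 groups overlapping. CPZ against CTL gave a fitted log2 fold change of 0.0012 ± 0.13 (SE, adjusted p = 0.998), with a 95% interval from 0.821-fold to 1.22-fold.

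Gad2, which encodes GAD65, the synaptic form of the enzyme, had 87.9, 139, 102, 117 and 105 TPM in CTL, 96.6, 90.8, 127 and 99.3 TPM in CPZ, and 97.05, 145, 85.4 and 138 TPM in RCV. The CPZ libraries lay inside the range of both other groups. CPZ against CTL gave a log2 fold change of -0.07 ± 0.18 (SE, adjusted p = 0.876), with an interval from 0.730-fold to 1.24-fold.

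Slc32a1, the vesicular GABA carrier, had 70.3, 144, 90.0, 105 and 88.4 TPM in CTL, 78.6, 71.9, 90.8 and 79.4 TPM in CPZ, and 72.1, 124, 76.9 and 126 TPM in RCV. The CPZ mean of 80.2 ± 7.85 TPM (SD, n = 4) was below the CTL mean of 99.6 ± 27.7 (SD, n = 5) and the RCV mean of 99.7 ± 29.2 (SD, n = 4), and all CPZ libraries fell within the CTL range. Fitted log2 fold changes were -0.28 ± 0.22 against CTL (SE, edgeR adjusted p = 0.522) and -0.31 ± 0.23 against RCV (SE). The interval against CTL ran from 0.591-fold to 1.14-fold. Without CTL replicate 2, the highest CTL library, the difference from CTL was -0.11.

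Lhx6, the lowest of the 10 genes, had 9.62, 17.9, 11.6, 10.7 and 8.02 TPM in CTL. The CPZ libraries had 10.1, 7.95, 8.54 and 8.19 TPM and the RCV libraries 7.79, 12.8, 10.1 and 20.1 TPM. All 4 CPZ libraries were at 10.1 TPM or below, where the other groups also had libraries, and 1 library each of CTL (replicate 2) and RCV (replicate 4) was far above the rest. Its log2 fold change was -0.45 ± 0.24 against CTL (SE, unadjusted p = 0.0832, adjusted p = 0.309), with an interval from 0.511-fold to 1.05-fold, and -0.43 ± 0.26 against RCV (SE). Without CTL replicate 2 the difference from CTL was -0.23, and without RCV replicate 4 the difference from RCV was -0.17.

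Pvalb had the largest fitted difference of the 10 genes in both comparisons with CTL. Its TPM was 103, 57.8, 114, 32.1 and 94.0 in CTL, 115, 103, 135 and 132 in CPZ, and 103, 158, 82.0 and 82.6 in RCV. CPZ replicates 1, 3 and 4 were above every CTL library, and CPZ replicate 2 was below CTL replicates 1 and 3. The means were 80.1 ± 34.1 TPM in CTL (SD, n = 5), 121 ± 15.1 in CPZ (SD, n = 4) and 106 ± 35.5 in RCV (SD, n = 4), and CTL replicate 4 was the lowest library of all. The log2 fold change of CPZ against CTL was 0.61 ± 0.32 (SE, unadjusted p = 0.0785, adjusted p = 0.298), an interval from 0.945-fold to 2.48-fold, and it was 0.41 without CTL replicate 4. RCV against CTL gave 0.43 ± 0.32 (SE, adjusted p = 0.965), and 0.18 without RCV replicate 2, its highest library.

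**Figure D2:**
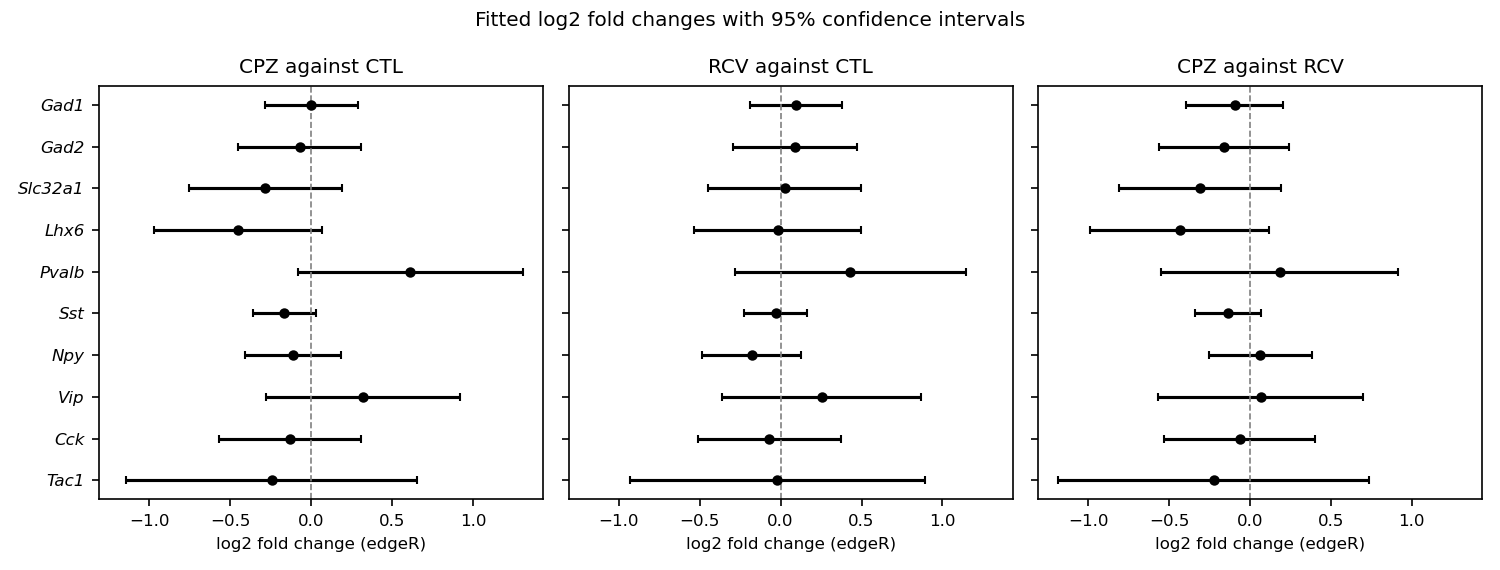
Fitted log2 fold change (horizontal axis) of each of the 10 genes in the 3 comparisons, with 95% confidence intervals from the edgeR fit; the dashed line marks no difference. Every interval crosses the line, and the widest belong to Tac1 and Pvalb.

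Sst, the precursor of somatostatin and the marker of dendrite-targeting interneurons, was the most even of the 10 genes over all libraries, the highest being 1.35 times the lowest. It had 389, 343, 361, 374 and 315 TPM in CTL, 315, 288, 359 and 302 TPM in CPZ, and 289, 366, 373 and 371 TPM in RCV. The CPZ libraries other than replicate 3 were at or below the lowest CTL library, RCV replicate 1 was as low as they were, and the groups overlapped. The log2 fold change of CPZ against CTL was -0.17 ± 0.091 (SE, unadjusted p = 0.0874, adjusted p = 0.317), with an interval from 0.781-fold to 1.02-fold, the narrowest of the 10 genes.

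Npy, whose peptide is made by neurogliaform and many somatostatin interneurons, had 152, 184, 201, 153 and 169 TPM in CTL, 182, 139.95, 132 and 179.7 TPM in CPZ, and 136, 137, 141 and 204 TPM in RCV. The 3 RCV libraries other than replicate 4 were below every CTL library, and replicate 4 was the highest of all 13. RCV against CTL gave a log2 fold change of -0.18 ± 0.14 (SE, unadjusted p = 0.235), and without RCV replicate 4 it was -0.33 (unadjusted p under 0.05, adjusted p = 0.619 in the edgeR fit). CPZ against CTL gave -0.11 ± 0.14 (SE, edgeR adjusted p = 0.722), with an interval from 0.753-fold to 1.14-fold.

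Vip, the precursor of vasoactive intestinal peptide and the marker of interneurons that inhibit other interneurons, had 27.7, 13.1, 25.2, 25.8 and 20.1 TPM in CTL, 31.3, 15.4, 39.3 and 25.5 TPM in CPZ, and 19.65, 37.0, 23.65 and 25.9 TPM in RCV. CPZ replicates 1 and 3 exceeded every CTL library and CPZ replicate 2 was near the lowest, so CPZ alone covered nearly the whole range of the 3 groups, which overlapped. The log2 fold change of CPZ against CTL was 0.32 ± 0.28 (SE, edgeR adjusted p = 0.582), with an interval from 0.824-fold to 1.89-fold. It was 0.53 without CPZ replicate 2 (adjusted p = 0.247) and 0.12 without CPZ replicate 3.

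Cck, the precursor of cholecystokinin, had 638, 285, 542, 456 and 556 TPM in CTL, 405, 454, 414 and 523 TPM in CPZ, and 534, 359, 508 and 497 TPM in RCV. CTL replicate 2 was the lowest library of all and CTL replicate 1 the highest, with all CPZ and RCV libraries between them, so the groups overlapped. The log2 fold change of CPZ against CTL was -0.13 ± 0.20 (SE, edgeR adjusted p = 0.786), with an interval from 0.673-fold to 1.24-fold. It was -0.28 without CTL replicate 2 (adjusted p = 0.265) and -0.02 without CTL replicate 1.

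Tac1, the precursor of substance P and neurokinin A, had the largest coefficient of variation of TPM (SD over mean) of the 10 genes within CTL (51.3%) and RCV (62.3%). It had 45.7, 134, 58.25, 65.4 and 50.0 TPM in CTL, 59.2, 61.5, 76.3 and 41.0 TPM in CPZ, and 52.0, 77.6, 28.55 and 135 TPM in RCV. CTL replicate 2 and RCV replicate 4, the libraries with the highest striatal marker levels, were the highest, and RCV replicate 3, with the lowest striatal level, was the lowest. The log2 fold change of CPZ against CTL was -0.24 ± 0.41 (SE, adjusted p = 0.806), with an interval from 0.453-fold to 1.58-fold, and it was 0.09 without CTL replicate 2.

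Over the 10 genes, 7 fitted values of CPZ against CTL lay below 0, where 54.6% of all genes did, and the median log2 fold change was -0.12 against -0.02 over all genes tested. RCV against CTL had 5 of 10 values below 0, with a median of 0.0032, and CPZ against RCV had 7 of 10, with a median of -0.11; of all genes 51.4% and 51.5% lay below 0. Single libraries moved these medians: without CTL replicate 2, CPZ against CTL had 5 of 10 values below 0 and a median of -0.03, and RCV against CTL a median of 0.18. Without RCV replicate 4 the median was -0.07 in RCV against CTL and -0.03 in CPZ against RCV, and without RCV replicate 1 the latter was -0.20. The comparisons share the same CTL, CPZ or RCV libraries.

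The coefficient of variation (SD over mean) of the TPM was lower in CPZ than in CTL for 7 of 10 genes, where it was so for 63.2% of all genes, and lower than in RCV for 9 of 10, where it was so for 63.7%, without a test. For Lhx6 it was 11.0% in CPZ, 32.7% in CTL and 42.1% in RCV, where counting error alone gives 10.1%, 9.66% and 10.3%. In CPM, Lhx6 in CPZ was 12.9 ± 0.63 (SD, n = 4), a smaller spread than counting error alone gives, so its evenness there cannot be read as a trait of CPZ. For Slc32a1 it was 9.79%, 27.8% and 29.3%, and for Pvalb 12.5%, 42.5% and 33.4%. Vip was the exception against both groups, with 36.1% in CPZ against 26.3% in CTL and 28.0% in RCV. The summed striatal markers also spread less in CPZ (474 to 1121 TPM) than in CTL (327 to 1841) and RCV (159.6 to 1549.9), and the part of this in the spread of the genes was not tested.

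How the 10 genes varied among themselves was described by Pearson's r of log2-CPM (counts scaled to library size, on a log scale) over the 13 libraries, with group means removed. Gad2 and Slc32a1 gave r = 0.94, Gad1 and Gad2 0.82, Gad1 and Slc32a1 0.81, and Slc32a1 and Lhx6 0.85. Tac1 varied with the same genes, at 0.87 with Gad2, 0.85 with Lhx6 and 0.83 with Slc32a1. Cck went the other way, at -0.82 with Slc32a1 and -0.70 with Gad2. Pvalb, Sst, Npy and Vip stood largely apart: Sst and Vip gave 0.68 and Npy and Lhx6 0.60, and the next highest values with one of these 4 genes were those of Npy with Tac1 and Pvalb with Vip, both 0.33. These values share libraries and depth and are given as descriptions.

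**Figure D3:**
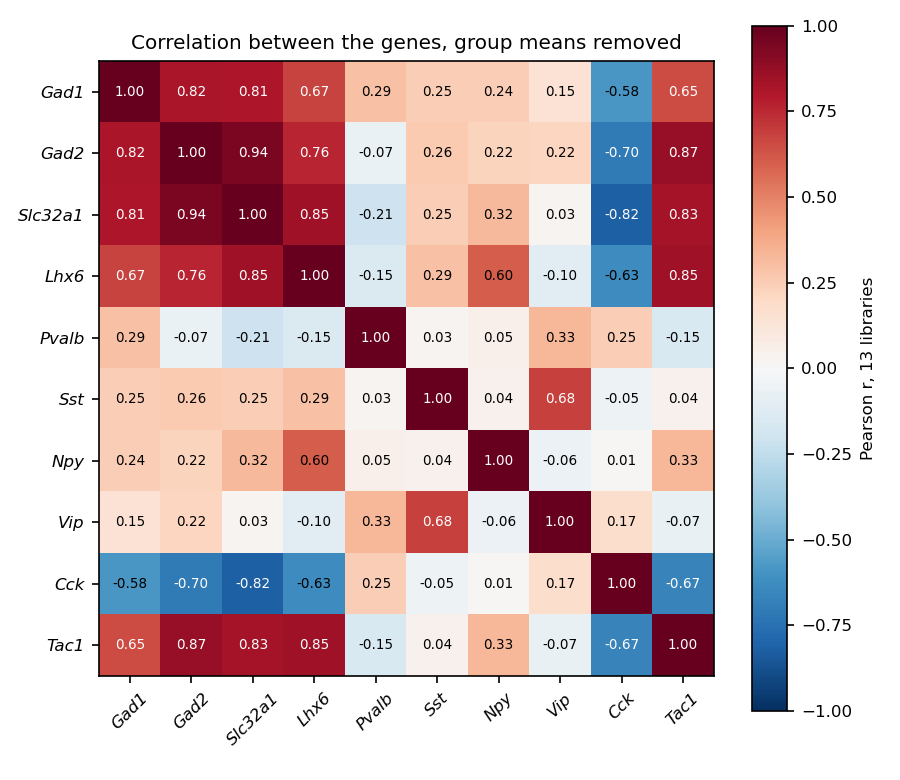
Pearson's r between each pair of the 10 genes over 13 libraries (log2-CPM, group means removed); red is positive and blue negative. Gad1, Gad2, Slc32a1, Lhx6 and Tac1 form a block of positive values from 0.65 to 0.94, and Cck is negative with all 5.

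The same deviations were compared with the mean log2-CPM of markers of striatal projection neurons, hippocampal excitatory neurons and cortical excitatory neurons, none of which is among the 10 genes. Of 30 relations, 6 passed an adjusted p of 0.05 (two-sided permutation test within groups, Benjamini-Hochberg over 30). Tac1 rose with the striatal score (r = 0.90, permutation p = 0.00102, adjusted p = 0.0153; Spearman's rho = 0.86, p = 0.00272, adjusted p = 0.0204). Cck rose with the cortical score (r = 0.75, permutation p = 0.00543, adjusted p = 0.0271; rho = 0.91, p = 0.00018, adjusted p = 0.0054).

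The other 4 relations were negative and involved the hippocampal score. Lhx6 gave r = -0.83 (permutation p = 0.00090, adjusted p = 0.0153) and rho = -0.73 (p = 0.0168, adjusted p = 0.063), of which rho did not pass. Gad2 gave r = -0.83 (permutation p = 0.00399, adjusted p = 0.027) and rho = -0.82 (p = 0.00223, adjusted p = 0.0204). The GABA carrier gene Slc32a1 gave r = -0.79 (permutation p = 0.00419, adjusted p = 0.027) and rho = -0.81 (p = 0.00237, adjusted p = 0.0204). For Tac1 r was -0.84 (permutation p = 0.0045, adjusted p = 0.027) and rho -0.81 (p = 0.00356, adjusted p = 0.0214). With the striatal score Lhx6, Gad2 and Slc32a1 gave positive values that did not pass. These were r = 0.78, 0.75 and 0.72 (adjusted permutation p = 0.0709, 0.0709 and 0.105). The striatal and hippocampal scores were themselves opposed across the libraries (r = -0.73), so the relations to them are not separate. For Pvalb, Sst, Npy and Vip 0 of 12 relations passed.

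The relations were computed again without the 2 libraries whose score, with group means removed, lay farthest from its median. Tac1 with the striatal score then gave r = 0.68 (left out: CTL replicate 2 and RCV replicate 3). Cck with the cortical score gave 0.76 (left out: CTL replicate 4 and RCV replicate 2). The hippocampal relations gave -0.73 for Lhx6, -0.82 for Gad2, -0.80 for Slc32a1 and -0.69 for Tac1 (left out: RCV replicates 3 and 4). Only that of Cck stayed past the threshold (adjusted permutation p = 0.0087). For Gad2 and Slc32a1 r hardly moved while the number of libraries fell from 13 to 11, and for Tac1 and Lhx6 r moved toward 0. With any single library left out, an alternative chosen after seeing the data, r stayed between 0.82 and 0.95 for Tac1 with the striatal score, and between 0.69 and 0.97 for Cck with the cortical score.

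**Figure D4:**
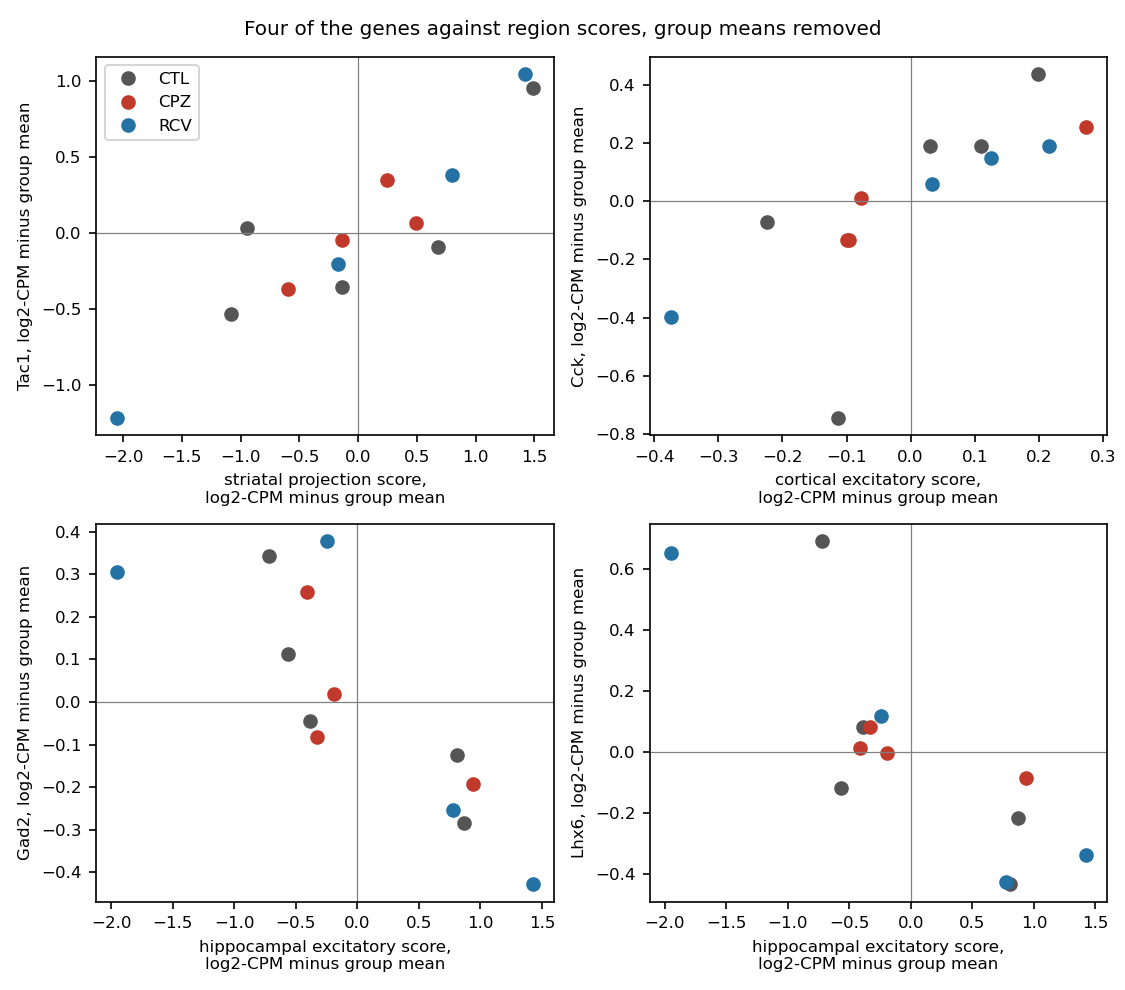
Tac1 against the striatal score, Cck against the cortical score, and Gad2 and Lhx6 against the hippocampal score (log2-CPM minus the group mean on both axes), 1 point a library, coloured by group. Tac1 and Cck rise with their scores (r = 0.90 and 0.75), Gad2 and Lhx6 fall with the hippocampal score (both r = -0.83), and CTL replicate 2 is the lowest library for Cck, at -0.74.

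With the striatal score as a covariate in the edgeR fit, Lhx6 had an adjusted p of 0.0557 in CPZ against CTL, the smallest of the 10 genes in any setting tried, and with the hippocampal score 0.0687. In CPZ against RCV the same fits gave Lhx6 adjusted p values of 0.0777 and 0.0636. All of these missed the threshold, and under the other settings tried for CPZ against CTL its adjusted p ran up to 0.65.

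The genes whose libraries most resembled each of the 10 were ranked over all genes tested by r over the 13 libraries, group means removed. Gad2 was nearest to Akap9 (r = 0.96), Dgkk (0.95) and Slc32a1 (0.94), and Slc32a1 to Gad2 (0.94), Rab3b (0.93) and Lsm7 (0.92). Gad1 was nearest to Lgi2 (0.94), Tdrd6 (0.93) and Bbx (0.92), and Lhx6 to Kdm3a (0.94), Jade2 (0.93) and Rhobtb2 (0.93). Tac1 was nearest to Meis2 (0.95), Scrn1 (0.95) and Slc35f1 (0.94), and Cck to Rab33a (0.96), Apba2 (0.92) and Dnajb6 (0.89).

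For Pvalb the nearest were Kif5b (0.93), Gjc3 (0.92) and Efna2 (0.91), and for Sst 2810039B14Rik (0.90), Donson (0.86) and Mlx (0.86). Npy was nearest to D430020J02Rik (0.93), Kcnj11 (0.86) and Nedd1 (0.86), and Vip to 9330117O12Rik, Wdr66 (both 0.89) and Cptp (0.87). These are the highest values among all the genes tested, and only the pair Gad2 and Slc32a1 named each other among the 10 genes.

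The genes around the 10 were followed in lists. Of 5 genes of GABA reuptake and breakdown, 13 tested receptors of the member peptides and 11 genes of peptide processing and dense core granules, 0 were called by edgeR in any of the 3 comparisons. In CPZ against CTL, 1, 3 and 5 of them had an unadjusted edgeR p under 0.05, in RCV against CTL 0, 2 and 2, and in CPZ against RCV 2, 1 and 2. Of all genes 22.1%, 6.2% and 19.1% had one in these comparisons. DESeq2 called 1 gene of GABA breakdown in CPZ against RCV, Aldh5a1, and 1 of peptide processing in CPZ against CTL, Pcsk1n, and limma-voom called 0. The smallest edgeR p of these lists in CPZ against CTL belonged to Aldh5a1, a mitochondrial enzyme of GABA breakdown (log2 fold change -0.16, adjusted p = 0.109), the somatostatin receptor Sstr3 (-0.34, adjusted p = 0.167) and Pcsk1n, an inhibitor of prohormone convertase (-0.28, adjusted p = 0.0667). In CPZ against RCV they were Aldh5a1 (-0.20), the neurokinin receptor Tacr3 (-0.73) and the amidating enzyme Pam (-0.26), and in RCV against CTL the GABA transporter Slc6a13 (0.20), Tacr3 (0.65) and the convertase Pcsk1 (-0.34). The medians of the 3 lists in CPZ against CTL were -0.14, -0.26 and -0.17, against -0.02 over all genes.

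Of 17 tested precursors of other neuropeptides, 1 was called, Pnoc, which encodes prepronociceptin and is also on the list of subclass markers. Its CPM was 7.75, 8.85, 10.1, 9.48 and 4.40 in CTL, 2.30, 6.56, 3.19 and 4.65 in CPZ, and 7.18, 5.83, 7.12 and 9.97 in RCV. Only CTL replicate 5 fell into the CPZ range among the CTL libraries. Pnoc was lower in CPZ than in CTL by edgeR (log2 fold change -0.95 ± 0.28, SE, adjusted p = 0.0437), but the call was kept under 13 of 27 other settings only, with adjusted p values from 0.0108 to 0.149, and was lost without CTL replicate 1, 2, 3 or 4, without CPZ replicate 1, 3 or 4, and without RCV replicate 1 or 3. Grp had the smallest p of the list in CPZ against RCV (-1.32, adjusted p = 0.0979) and Gal in RCV against CTL (-1.32, adjusted p = 0.568).

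Of 21 tested other subclass markers, edgeR called 2 in CPZ against CTL and 2 in CPZ against RCV. An unadjusted edgeR p under 0.05 was reached by 5 in CPZ against CTL, 8 in CPZ against RCV and 1 in RCV against CTL. Of all genes 22.1%, 19.1% and 6.2% reached it. The list medians were -0.26, -0.32 and 0.10 in the same order, against -0.02, -0.01 and -0.004 over all genes. DESeq2 also called Calb1 in CPZ against CTL (edgeR adjusted p = 0.055) and Nos1 in CPZ against RCV (edgeR -0.55, adjusted p = 0.057). Calb1, which encodes calbindin, had 101, 106, 105, 108 and 124 CPM in CTL, 89.2, 85.7, 102 and 92.2 CPM in CPZ, and 106, 122, 120.1 and 129.9 CPM in RCV. All CPZ libraries were below all RCV libraries, where 13.2% of all genes had no overlap between these groups in either direction, and CPZ replicate 3 fell into the CTL range. Calb1 was lower in CPZ than in RCV (log2 fold change -0.37 ± 0.079, SE, edgeR adjusted p = 0.0085) and kept this call under all 27 other settings, with adjusted p values up to 0.0405; against CTL its value was -0.24. Calb1 is also expressed by striatal and cortical projection neurons. Besides Pnoc and Calb1, Igf1 was called by edgeR, 1.53 higher in CPZ than in CTL and 1.15 higher than in RCV on the log2 scale. The smallest p in RCV against CTL belonged to Kit (0.45, adjusted p = 0.763).

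On the list of transcription factors of interneurons, Maf was called, 0.56 higher in CPZ than in CTL and 0.49 higher than in RCV on the log2 scale. The median of the 16 tested genes of this list was -0.23 in CPZ against CTL, where that of all genes was -0.02. It was -0.16 in CPZ against RCV and 0.01 in RCV against CTL. An unadjusted edgeR p under 0.05 was reached by 5, 3 and 2 of the 16, against 22.1%, 19.1% and 6.2% of all genes. Igf1 and Maf are also genes of microglia and macrophages, and their rise went with that of 8 of 8 microglial markers, whose summed level was 349.7 to 417 TPM in CTL, 1259 to 2686 in CPZ and 551 to 783 in RCV; the part of these cells in the values was not tested. The CPZ against CTL call of Maf was kept under 24 of 27 other settings and lost in the 3 limma fits on TPM (adjusted p up to 0.206). Its CPZ against RCV call was kept under 17 of 27; it was lost in the same 3 fits (adjusted p up to 0.378), with only the 2 groups compared, without CPZ replicate 1, 2 or 4 and without RCV replicate 1 or 2.

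Of 11 genes of fast-spiking physiology and perineuronal nets, which include the Kv3 channels and aggrecan, 1 was called, Cox6a2, a subunit of cytochrome c oxidase known from muscle and from parvalbumin interneurons. It had 3.94, 2.85, 3.84, 1.83 and 3.67 CPM in CTL, 8.79, 8.14, 5.13 and 4.39 CPM in CPZ, and 3.08, 3.73, 2.12 and 3.25 CPM in RCV. All 4 CPZ libraries were above all others; groups without overlap were found for 13.1% of all genes against CTL and 13.2% against RCV. Its log2 fold change was 1.03 ± 0.26 against CTL (SE, edgeR adjusted p = 0.0148) and 1.11 ± 0.28 against RCV (SE, adjusted p = 0.0245). The call against CTL was kept under 24 of 27 other settings. It was lost without CPZ replicate 1 or 2 and by limma on log2(TPM + 1) without a filter. The call against RCV was kept under 20 of 27. It was lost without CPZ replicate 1 or 2 and without RCV replicate 1 or 3. It was also lost by limma-voom, by limma on log2(TPM + 0.1) and by limma on log2(TPM + 1) without a filter. The median of this list in CPZ against CTL was 0.04, and in RCV against CTL its smallest p belonged to Hapln1 (0.32, adjusted p = 0.853).

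Of 12 pan-neuronal genes, Eno2 alone was called, lower in CPZ than in CTL (-0.20 ± 0.049, SE, edgeR adjusted p = 0.015), and the list had medians of -0.12 (CPZ against CTL), -0.03 (CPZ against RCV) and -0.05 (RCV against CTL). The call of Eno2 was kept under 22 of 27 other settings; it was lost without CPZ replicate 1 or 3, with no filter on counts, and with libraries scaled to these pan-neuronal genes, where its value was -0.09 (adjusted p = 0.395). All 12 genes had values below 0 in CPZ against CTL, from -0.20 to -0.03, where 54.6% of all genes lay below 0. An unadjusted edgeR p under 0.05 was reached by 3 of the 12, and by 22.1% of all genes. Elavl3 (-0.21, CPZ against RCV) and Stmn2 (-0.12, RCV against CTL) had the smallest p of the list there. Of 8 activity-induced immediate early genes, 0 were called by edgeR in any comparison, and DESeq2 and limma-voom also called 0. An unadjusted edgeR p under 0.05 was reached by 0 in CPZ against CTL (22.1% of all genes). It was reached by 1 in RCV against CTL (6.2% of all genes) and by 1 in CPZ against RCV (19.1%). The smallest p belonged to Fos in CPZ against CTL (0.52, adjusted p = 0.572), and to Npas4 in RCV against CTL (0.60, adjusted p = 0.625) and in CPZ against RCV (-0.65, adjusted p = 0.148).

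Of the regional lists 0 genes were called by edgeR in any comparison, and DESeq2 and limma-voom called 0 of them. With edgeR 1 gene, the cortical gene Tbr1, had an unadjusted p under 0.05, in RCV against CTL (-0.46). Of all genes 6.2% reached it in that comparison. The smallest p of each list in CPZ against CTL belonged to Rorb (cortex, 0.28), Cabp7 (hippocampus, -0.34), Rgs9 (striatum, -0.25), Tcf7l2 (thalamus, 0.26), Zic1 (cerebellum, 0.16), Cdhr1 (olfactory bulb, -0.48) and Kl (choroid plexus, 0.25). In CPZ against RCV they were Tbr1 (0.33), Fibcd1 (-1.68), Rgs9 (-0.13), Tnnt1 (-0.58), Zic1 (0.42), Th (-1.36) and Clic6 (1.47), and in RCV against CTL, for the lists other than the hippocampal one, Tbr1, Rasd2 (-0.15), Tnnt1 (0.41), Zic1 (-0.26), Th (0.78) and Clic6 (-1.26). Among glial genes, Csf1r, C1qa and Cx3cr1 rose by 1.83, 3.01 and 1.72 in CPZ against CTL, Opalin, Mal and Mbp gave -1.96, -2.43 and -1.48, and of 6 astrocyte genes 4 rose, Gfap (2.43), Aqp4 (0.54), Aldh1l1 (0.39) and Slc1a3 (0.36). In CPZ against RCV, Csf1r, Cx3cr1 and C1qb rose by 1.14, 1.24 and 1.68, Opalin, Mal and Mbp gave -2.03, -2.58 and -1.67, and Aldh1l1 (0.38) and Gfap (0.63) rose. In RCV against CTL, Gfap (1.80) and Aqp4 (0.44) rose, while C1qa (1.32, adjusted p = 0.0556) did not pass.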

How the data were processed

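Bulk RNA-seq libraries of 13 mouse brain hemispheres (5 CTL, 4 CPZ, 4 RCV) were analysed. Per the labels, mRNA libraries were sequenced from both ends. The authors deposited estimated counts for each gene, without scaling between libraries, and TPM, scaled to transcript length and to a fixed total in each library; the submitters' processing notes name STAR, RSEM and mm10 with no version, and give neither a strand setting nor an annotation release. Gene identifiers matched GENCODE M21 for 98.1%. Columns left out numbered 0.

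Estimated counts were rounded, 92 spike-in rows were left out, genes were filtered with filterByExpr, and all libraries were fitted together with edgeR 4.0.16 (TMM scaling, robust quasi-likelihood F test, R 4.3.3), with Benjamini-Hochberg adjustment over 14985 genes at 0.05. DESeq2 1.42.0, limma 3.58.1 (voom on counts, and log2(TPM + 1) or log2(TPM + 0.1)), other filters, scalings and covariates, a replicate block and leaving out each library were alternatives. Levels between genes were compared only in TPM. Log2-CPM used a prior count of 2, and correlations 100000 permutations within groups. Scripts were tested on simulated data. Totals of 4605100 to 8197289 counts set the precision, and counting errors cover counting only.

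Groups follow the treatment label. Replicates differed by 4.23 to 16.3 in chi-square per gene, all far above the sampling noise of 1 library counted again. The 10 genes and the gene lists were chosen with earlier results of these data known. By rule, the text names all 10 genes, up to 4 called genes of each list and comparison (or the gene with the smallest p where none was called), and the 3 genes most like each of the 10. Some genes that this rule names are not reported here.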

Additional observations from a re-analysis of the deposited data

Results flagged for a closer look

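In 4 of 30 groups of libraries (10 genes in 3 groups), 1 library lay farther from the rest than Dixon's criterion at 95% allows; chance flags about 1 in 20 groups. CTL replicate 2 was apart for Gad1, at 373 TPM where the next CTL library had 269.8, and for Tac1, at 134 TPM where the next had 65.4; it also had the highest striatal marker level of all libraries. RCV replicate 1 was apart for Sst, at 289 TPM where the next RCV library had 366. RCV replicate 4 was apart for Npy, at 204 TPM where the next had 141.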

How the results depend on the processing

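Each of the 30 log2 fold changes of the 10 genes was recomputed under 27 other settings, and of the 810 values 0 were called; 5 uncalled values moved by more than 1 SE and 55 changed sign without being called. The 5 were Lhx6 and Npy in RCV against CTL (-0.27 and -0.33) and in CPZ against RCV (-0.17 and 0.22) without RCV replicate 4, and Sst in CPZ against CTL (-0.06) with libraries scaled to the pan-neuronal genes. That scaling moved the median of all genes in CPZ against CTL from -0.02 to 0.08, and the members' median from -0.12 to -0.02, below the median of all genes under both. Without the 2 libraries whose score, with group means removed, lay farthest from its median, 1 of 6 correlations with region scores stayed past the threshold. Fewer libraries were used there.

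Of 12 same-numbered pairs of libraries, 3 correlated above 0.1 (range -0.20 to 0.14), all in RCV against CTL (0.13, 0.14 and 0.11). CTL replicate 5 has no partner. Differently numbered pairs were not compared, so these values cannot decide whether the replicate numbers pair the libraries. With the number as a replicate block, 0 of the 10 genes were called in each comparison, 2 had an unadjusted p under 0.05 in CPZ against CTL, and 1172 genes were called in CPZ against CTL in place of 1522, 42 in RCV against CTL in place of 56, and 755 in CPZ against RCV in place of 1050. Among the list genes named, the calls of Eno2 (CPZ against CTL) and Maf (CPZ against RCV) were lost under the block. Over all genes, DESeq2 called 131 and limma-voom 12 in RCV against CTL. Depth limits Lhx6 and Vip most, for which counting error alone gives a coefficient of variation of 8.64% to 10.3%.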
